A study of Mus musculus with 24 samples.

Results

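The mouse receptors for IgG antibodies were followed through total RNA and ribosome footprints of cultured macrophages. The set was defined by gene symbol, with earlier results of these data known, and held 5 of the 23337 gene symbols listed in the count tables. These were the activating receptors Fcgr1, Fcgr3 and Fcgr4, the inhibitory receptor Fcgr2b, and Fcer1g, the common gamma chain. The cells were bone-marrow-derived macrophages (BMDMs) of the C57BL/6J strain, grown from marrow of 6 to 12 week old mice for 7 days with 20 ng/mL of the macrophage growth factor M-CSF and checked by flow cytometry for the surface markers F4/80 and Cd11b. One group was wild type (WT) and the other Apobec1 -/- (KO), lacking the APOBEC1 enzyme that edits cytidine to uridine in RNA. The 2 genotypes came from littermates or age-matched mice. The study asked whether APOBEC1 affects translation. Each of 6 KO and 6 WT cultures gave 1 total RNA library and 1 library of ribosome-protected fragments (RPFs, here called footprints), which are the pieces of mRNA covered by ribosomes. The labels place the cultures in 3 batches of 4. KO1 fell in batch 1 with WT1, WT2 and WT3, WT4 with KO2, KO3 and KO4 in batch 2, and the remaining KO5, KO6, WT5 and WT6 made up batch 3. Whether every culture had a mouse of its own is not stated, so the p-values measure the spread between these cultures, which may in part be technical.

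Fc-gamma receptors bind the constant part of IgG and let macrophages take up antibody-coated particles. Fcgr1 is the high-affinity receptor, and Fcgr3 and Fcgr4 are activating receptors of lower affinity. All 3 reach the cell surface with the Fcer1g dimer, whose cytoplasmic motif is phosphorylated by Src-family kinases and recruits the kinase Syk. Fcgr2b carries an inhibitory motif of its own that recruits the lipid phosphatase SHIP1, the product of Inpp5d. Interferons are known to induce Fcgr1 and Fcgr4 in macrophages.

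All but Fcgr1 lie near each other on mouse chromosome 1 (build GRCm38, called mm10). Fcgr2b spans positions 170960558 to 170976071, Fcgr4 171018926 to 171029761, Fcgr3 171051169 to 171065915 and Fcer1g 171229572 to 171234349, a stretch of 274 kb in all. Fcgr1 lies on chromosome 3 at 96282909 to 96293969. The 250 bases before the RefSeq transcription start are printed for Fcgr1 and Fcgr4, the 2 receptors with the largest fitted changes from batch 2 to batch 3 in both RNA and footprints. Capitals mark matches on either strand to GAGGAA, a core bound by the myeloid factor PU.1, to TTCNNNGAA, the core of the interferon-gamma activated sequence, and to the core of the interferon-stimulated response element (ISRE), a GAAA repeated after 2 free bases.
Fcgr1, chr3:96293970-96294219, minus strand: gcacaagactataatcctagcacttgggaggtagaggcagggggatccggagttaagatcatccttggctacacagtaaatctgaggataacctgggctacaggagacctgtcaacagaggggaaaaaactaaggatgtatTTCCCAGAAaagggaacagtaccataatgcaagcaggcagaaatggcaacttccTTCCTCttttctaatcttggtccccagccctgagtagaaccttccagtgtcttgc
Fcgr4, chr1:171018676-171018925, plus strand: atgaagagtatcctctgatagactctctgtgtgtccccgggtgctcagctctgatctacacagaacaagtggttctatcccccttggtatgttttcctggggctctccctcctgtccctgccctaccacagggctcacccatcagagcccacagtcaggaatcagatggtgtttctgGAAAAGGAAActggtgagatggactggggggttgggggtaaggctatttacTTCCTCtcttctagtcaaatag
In Fcgr1 the TTCNNNGAA match begins 109 bases and the GAGGAA match, on the opposite strand, 55 bases before the start. In Fcgr4 the ISRE core match begins 73 bases and the GAGGAA match 22 bases before the start. Of 27025 gene promoters of this length, 23.1% held GAGGAA, 7.18% TTCNNNGAA and 3.04% the ISRE core. Fcgr3 held GAGGAA alone, and none of the 3 motifs was found in these windows of Fcgr2b and Fcer1g. The matches are a description of the letters and no binding was measured.

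Library depth set how far each value could be read. Counts assigned to genes numbered 5077478 to 12059361 per total RNA library and 29561 to 3714912 per footprint library. The 4 footprint libraries of batch 3 were the shallowest, at 29561 (WT6) to 223504 (KO5) counts. Levels are given as CPM (counts per 1000000) after scaling by edgeR's TMM factors within each kind of library; in WT6 footprints, 3 counts equalled 82.2 CPM. No gene lengths were used, so levels are compared between cultures for 1 gene and not between genes. The targeted gene matched the labels in footprints, with Apobec1 at 0 to 24.9 CPM in KO and 61.0 to 105 CPM in WT cultures. In total RNA it was higher in KO (605 to 1278 CPM) than in WT (313 to 475 CPM).

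The cultures differed in more than genotype. All 9 measured macrophage markers (Csf1r, Mertk and Itgam among them) were detected in every batch, with a summed RNA level of 15375 to 25225 CPM in batch 3, 21930 to 29114 in batch 1 and 27652 to 48976 in batch 2. Neutrophil markers summed to 57.6 to 67.4 CPM in batch 1, 154 to 593 in batch 2 and 444 to 595 in batch 3. Within batch 2, the WT4 culture stood apart, with 593 CPM of neutrophil markers against 154 to 201 in KO2 to KO4, and 48976 CPM of macrophage markers against 27652 to 32019. Lyz2 made 34783 CPM of that macrophage sum in WT4, against a mean of 18415 in KO2 to KO4. Emr1, Itgam and Mertk RNA were also higher in WT4 than that mean. Csf1r RNA was near equal (4111 against 4032 CPM) and Cd68 RNA was lower (303 against 429 CPM). Monocyte markers summed to 111 to 158, 407 to 539.8 and 167 to 220.4 CPM in batches 1 to 3, and dendritic cell markers to 339.6 to 576, 400.2 to 1138 and 80.7 to 123 CPM. Markers of B cells summed to at most 8.28 CPM in any RNA library and those of NK and T cells to at most 1.24 CPM. Mast cell markers summed to 43.2 to 72.7 CPM in batch 3, of which Kit made 39.6 to 67.4, and to at most 13.4 CPM elsewhere. Xist ran from 26.0 to 51.1 CPM and the Y-linked Ddx3y from 0 to 0.151 CPM in batch 3, against at most 0.911 and at least 68.8 CPM in batches 1 and 2. The labels give no sex, and batch cannot be told apart from these differences. In bulk cultures, fewer cells of a type and less RNA per cell cannot be told apart.

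**Figure D1:**
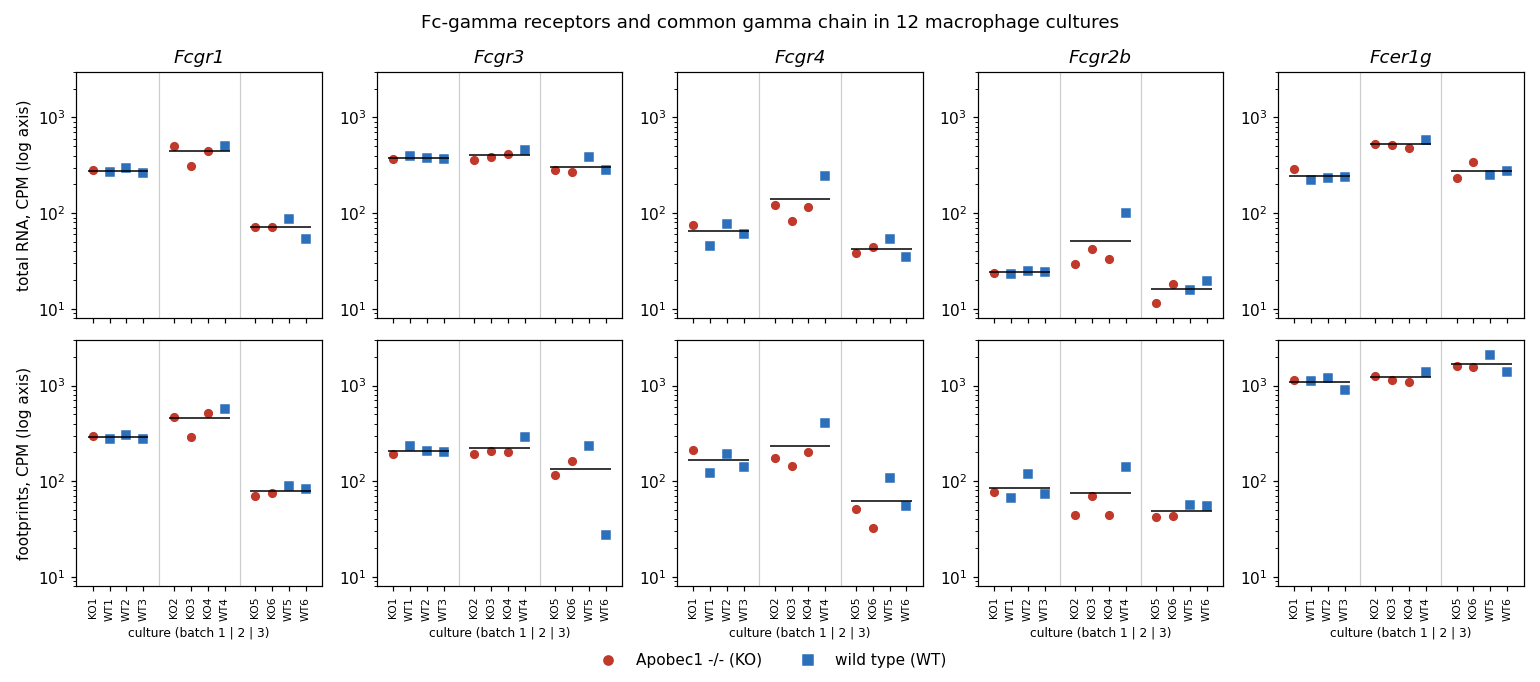
Level of each gene in each culture, in CPM on a log axis, with total RNA above and footprints below. Circles are KO and squares WT cultures, grey lines separate the batches and black bars are batch means; Fcgr1 is lowest in all 4 cultures of batch 3, and WT4 lies above KO2 to KO4 for Fcgr4 and Fcgr2b in both rows.

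Fcgr1, the high-affinity receptor, separated the batches in total RNA. It was at 281 (KO1), 272 (WT1), 298 (WT2) and 264 CPM (WT3) in batch 1, at 503 (KO2), 311 (KO3), 451 (KO4) and 503 CPM (WT4) in batch 2, and at 72.0 (KO5), 72.5 (KO6), 87.4 (WT5) and 53.9 CPM (WT6) in batch 3. No culture of 1 batch overlapped another batch. Its footprints were lowest in batch 3 as well. They stood at 295, 278, 307 and 273 CPM in KO1 and WT1 to WT3, at 464, 291, 514 and 566 CPM in KO2 to KO4 and WT4, and at 69.9, 75.9, 89.2 and 82.2 CPM in KO5, KO6, WT5 and WT6. The batch 3 footprints rest on 3 to 19 counts per library, yet all 4 values lay below every other culture, while KO3 of batch 2 lay inside the batch 1 range. The log2 change from batch 2 to batch 3 was -2.64 for RNA by edgeR's quasi-likelihood test (SE 0.17, adjusted p = 1.77e-07). For footprints the same test gave -2.58 (SE 0.23, adjusted p = 6.42e-10). Relative to batch 1 it fell by 1.95 in RNA and by 1.80 in footprints, both past the adjusted p threshold of 0.05.

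Fcgr3, an activating receptor of lower affinity, varied least between batches in RNA. Its RNA was at 371, 396, 373 and 371 CPM in KO1 and WT1 to WT3, at 359.9, 390.5, 416 and 454 CPM in KO2 to KO4 and WT4, and at 281, 268, 389.9 and 279.6 CPM in KO5, KO6, WT5 and WT6. Batch 3 was lower except for WT5, which lay inside the range of the other batches. Footprints ran from 191 to 233 CPM in batch 1, 195 to 289 CPM in batch 2 and 27.4 to 235 CPM in batch 3. The lowest of these, in WT6, was 1 count, with an exact Poisson interval of 0.693 to 153 CPM that covers counting error only. From batch 2 to batch 3 the log2 RNA change was -0.46 (SE 0.11, edgeR adjusted p = 0.00314). The footprint difference of -0.57 (SE 0.22, edgeR adjusted p = 0.0526) did not pass, though it passed with DESeq2 (adjusted p = 0.0280).

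Fcgr4, the activating receptor that is known to respond to interferon, was highest in batch 2 RNA. It was at 75.2, 45.3, 77.5 and 59.8 CPM in KO1 and WT1 to WT3, at 122, 82.2, 116 and 244 CPM in KO2 to KO4 and WT4, and at 38.1, 44.4, 53.2 and 34.5 CPM in KO5, KO6, WT5 and WT6. WT4 was the highest of the 12 cultures, at 2.28 times the mean of KO2 to KO4. WT4 was also the highest in footprints, which stood at 211, 122, 191 and 141 CPM in batch 1, 176, 145, 202 and 408 CPM in batch 2, and 51.3, 32.5, 108 and 54.8 CPM in batch 3, in the same culture order. There KO2 to KO4 lay inside the batch 1 range. The footprint change from batch 1 to batch 2 did not pass (0.70, SE 0.31, edgeR adjusted p = 0.150). Batch 3 lay below batch 2 without overlap in both kinds of library, with log2 changes of -1.76 in RNA (SE 0.30, edgeR adjusted p = 6.97e-04) and -1.84 in footprints (SE 0.45, edgeR adjusted p = 0.0130). The footprint call was lost when KO5 was left out (edgeR adjusted p = 0.0908).

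Fcgr2b, the inhibitory receptor, had nearly equal RNA in the 4 cultures of batch 1, at 23.8 (KO1), 23.3 (WT1), 24.6 (WT2) and 24.4 CPM (WT3). In batch 2 it was at 29.2 (KO2), 41.8 (KO3), 32.9 (KO4) and 99.7 CPM (WT4), and in batch 3 at 11.4 (KO5), 18.2 (KO6), 15.6 (WT5) and 19.5 CPM (WT6). WT4 held 2.88 times the mean of KO2 to KO4, and no other culture passed 41.8 CPM. The footprints were at 76.3, 67.5, 119 and 73.3 CPM in batch 1, at 44.3, 69.4, 43.9 and 139.8 CPM in batch 2 and at 41.9, 43.4, 56.3 and 54.8 CPM in batch 3. WT4 was again the highest culture, at 2.66 times the mean of KO2 to KO4, while KO2 and KO4 lay below the batch 1 range and KO3 inside it. In RNA, the log2 change from batch 2 to batch 3 was -1.71 (SE 0.27, edgeR adjusted p = 3.90e-04). The footprint difference of -0.70 (SE 0.37, edgeR adjusted p = 0.185) did not pass. Fcgr2b, Fcgr3 and Fcgr4 have closely related sequences. Reads placed at more than 1 site, left out of the gene counts, made 27.8 to 51.2% of reads in RNA and 45.6 to 80.1% in footprint libraries, and how many came from these genes is not known.

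Fcer1g, the signalling chain shared by the activating receptors, behaved differently in RNA and in footprints. Its RNA was at 291, 223, 236 and 238 CPM in batch 1, at 529, 516, 484 and 577 CPM in batch 2 and at 234, 343, 252 and 277 CPM in batch 3. Batch 2 lay above both other batches without overlap. Its footprints were at 1145, 1104, 1196 and 899 CPM in batch 1, at 1272, 1129, 1082 and 1399 CPM in batch 2 and at 1617, 1562, 2093 and 1369 CPM in batch 3. Here the mean of batch 3 was the highest, though WT6 of batch 3 (50 counts) lay below WT4 of batch 2. The fitted RNA and footprint changes of Fcer1g between batches 2 and 3 had opposite signs. RNA fell by 0.91 (SE 0.12, edgeR adjusted p = 6.31e-05) and footprints rose by 0.44 (SE 0.15, edgeR adjusted p = 0.0264) on the log2 scale. The footprint rise did not pass when KO5, KO6 or WT5 was left out (edgeR adjusted p = 0.0690, 0.0556 and 0.183).

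Batch calls over the 5 genes are read against all genes. In RNA, batch 2 over batch 1 gave 4 calls, all higher, where 23.5% of tested genes passed: Fcgr1 by 0.69, Fcgr4 by 1.24, Fcgr2b by 1.29 and Fcer1g by 1.05. Without WT4, Fcer1g alone passed, and Fcgr1, Fcgr4 and Fcgr2b stood at 0.58, 0.67 and 0.63. The count over all genes fell as well, from 2572 to 1345. Batch 3 over batch 1 gave 1 RNA call, Fcgr1, where 45.3% of genes passed. Without WT4 it gave 4, with Fcgr2b at -0.54, Fcgr3 at -0.27 and Fcgr4 at -0.61 now past the threshold. The share of all genes in that setting is not given here, so these 4 calls cannot be read against it. Batch 3 over batch 2 called all 5 as lower, where 49.2% of genes passed in either direction and 24.5% passed as lower. In footprints, batch 2 over batch 1 called Fcgr1 (0.78, where 15.4% of genes passed), which was lost without WT4 (0.58, edgeR adjusted p = 0.0968). Batch 3 over batch 1 called Fcgr1 as lower and Fcer1g as higher by 0.67, where 20.8% of genes passed; the Fcer1g call was lost without WT5 (0.48, edgeR adjusted p = 0.0518). Batch 3 over batch 2 called 3 of the 5 in footprints, Fcgr1 and Fcgr4 lower and Fcer1g higher, where 22.5% of genes passed.

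Overlap of the 4 cultures per batch gave a similar count. In RNA, 4 of the 5 genes lay higher in batch 2 than in batch 1 without overlap, as did 16.9% of all tested genes. From batch 2 to batch 3, the same 4 (Fcgr1, Fcgr2b, Fcgr4 and Fcer1g) lay lower without overlap, as did 20.7% of genes, and from batch 1 to batch 3, Fcgr1 and Fcgr2b did, as did 23.5%. In footprints, Fcgr1, Fcgr2b and Fcgr4 were lower in batch 3 than in batch 1 without overlap (13.9% of genes) and Fcer1g was higher (8% of genes); Fcgr1 and Fcgr4 were lower in batch 3 than in batch 2 (14.8% of genes). WT4 was the highest of 12 cultures for all 5 genes in RNA, as it was for 14.4% of genes, and for the 4 receptors in footprints, as it was for 7.91% of genes. For Fcgr1 RNA this was close to a tie, at 503.3 CPM in WT4 and 503.1 in KO2. WT4 exceeded the mean of KO2 to KO4 by more than 2 times for Fcgr4 and Fcgr2b in both kinds of library, as it did for 2.81% of genes in RNA and 1.87% in footprints. In RNA it stood at 1.19, 1.17 and 1.13 times that mean for Fcgr1, Fcgr3 and Fcer1g.

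**Figure D2:**
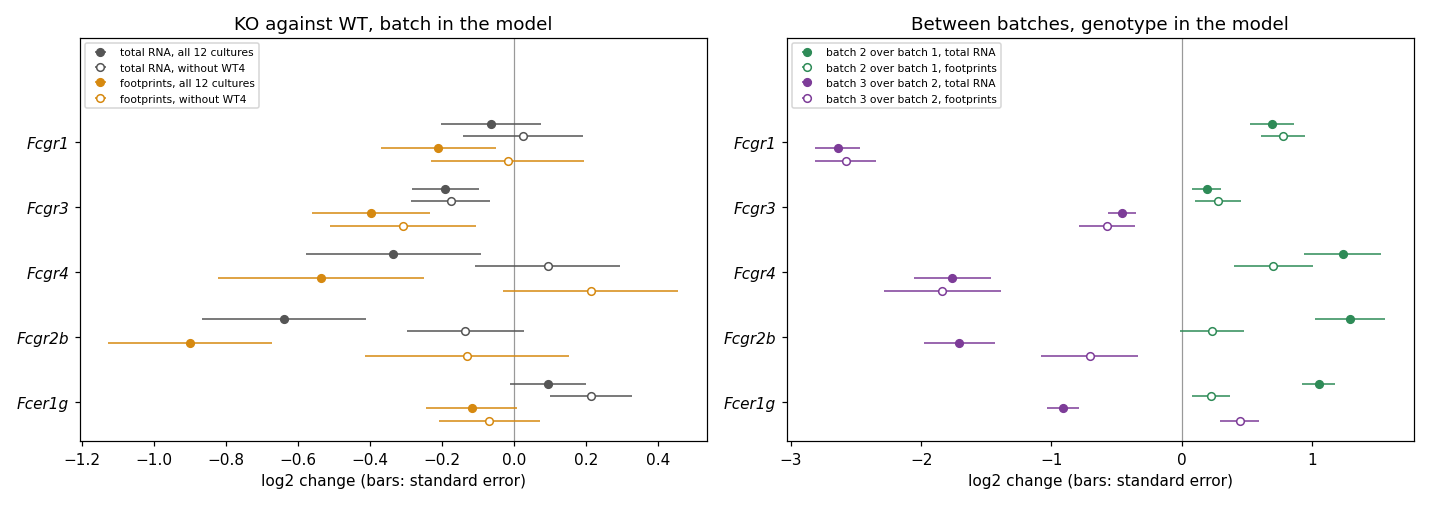
Log2 changes with standard errors, KO against WT on the left and between batches on the right. On the left, open circles leave out WT4, and Fcgr2b then moves from -0.64 to -0.13 in RNA and from -0.90 to -0.13 in footprints; on the right, Fcer1g is the gene whose RNA (filled) and footprint (open) changes from batch 2 to batch 3 lie on opposite sides of 0.

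No receptor was called between the genotypes. In total RNA, with batch in the model, 0 of the 5 genes passed, where 0.0183% of genes did. At an unadjusted p below 0.05, edgeR's test named 1 of the 5, Fcgr2b, against 4.68% of all genes. Fcgr2b stood at -0.64 in KO relative to WT (SE 0.23, edgeR adjusted p = 0.859), Fcgr4 at -0.33 (SE 0.24), Fcgr3 at -0.19 (SE 0.09), Fcgr1 at -0.06 (SE 0.14) and Fcer1g at 0.09 (SE 0.11), all on the log2 scale. Over the 6 KO cultures Fcgr2b RNA ran from 11.4 to 41.8 CPM with a median of 26.5, and over the 6 WT cultures from 15.6 to 99.7 CPM with a median of 23.8, so the groups overlapped. Fcgr4 RNA ran from 38.1 to 122 CPM in KO (median 78.7) and from 34.5 to 244 CPM in WT (median 56.5). For both genes the KO median was the higher one, while the fitted difference, which compares cultures within batches, was negative.

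In footprints, 0 of the 5 genes passed, where 0.0832% of genes did, and 2 of the 5 (Fcgr2b and Fcgr3) had an unadjusted p below 0.05, against 8.52% of all genes. Fcgr2b stood at -0.90 in KO (SE 0.23, edgeR adjusted p = 0.159), Fcgr4 at -0.54 (SE 0.29), Fcgr3 at -0.40 (SE 0.16), Fcgr1 at -0.21 (SE 0.16) and Fcer1g at -0.12 (SE 0.13). Fcgr2b passed without the filter on low counts (-0.89, edgeR adjusted p = 3.88e-04), where 1.26% of all genes passed. It also passed without WT1 (-1.01, edgeR adjusted p = 0.0303), where 0.337% of all genes did. Without KO1, Fcgr2b (-1.35, edgeR adjusted p = 4.60e-05) and Fcgr4 (-1.20, edgeR adjusted p = 2.66e-05) passed. That setting leaves batch 1 without a KO culture, and 3.45% of all genes passed in it. Leaving out WT4 had the opposite effect. Fcgr2b then stood at -0.13 in RNA (SE 0.16) and at -0.13 in footprints (SE 0.28), and Fcgr4 turned to 0.09 (SE 0.20) and 0.21 (SE 0.24).

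The difference of Fcgr2b and Fcgr4 between genotypes was largest in batch 2, where WT4 is the only WT culture. The mean log2 CPM of Fcgr2b RNA in KO minus WT was -0.02 in batch 1, -1.54 in batch 2 and -0.27 in batch 3. In footprints these were -0.13, -1.42 and -0.37. For Fcgr4 they were 0.34, -1.21 and -0.06 in RNA and 0.49, -1.23 and -0.89 in footprints. Batch 1 has 1 KO culture and batch 2 has 1 WT culture, so a test of genotype by batch rests on single cultures there, whose spread is taken from the other groups. It called Fcgr4 in footprints (edgeR adjusted p = 7.29e-04), 1 of the 5 genes where 2.01% of all genes passed, and none in RNA, where 0.987% passed. Without WT4, when only batches 1 and 3 can be compared, the Fcgr4 footprint p was 0.718 and none of all tested genes passed. Fcgr2b did not pass in RNA (edgeR adjusted p = 0.0653) or footprints (edgeR adjusted p = 0.0753). The summed RNA of neutrophil and of macrophage markers was also higher in WT4 than in KO2 to KO4, as given above, though not every macrophage marker was. Of 7 neutrophil markers tested in footprints, S100a8 (-1.28, SE 0.23, edgeR adjusted p = 0.00838) and Mmp9 (-1.50, SE 0.31, edgeR adjusted p = 0.0335) were called lower in KO, where 0.0832% of all genes passed. Without WT4, S100a8 stood at -0.31 (SE 0.36, edgeR adjusted p = 0.987) and Mmp9 was too low to be tested. Their part in these differences was not tested.

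The share of the inhibitory receptor was highest in WT4 in RNA but not in footprints. Fcgr2b made 3.17% (KO1), 3.16% (WT1), 3.18% (WT2) and 3.39% (WT3) of the RNA counts of the 4 receptors in batch 1. In batch 2 it made 2.88% (KO2), 5.07% (KO3), 3.24% (KO4) and 7.66% (WT4), and the 95% Wilson interval of WT4, 7.10 to 8.27%, lay above that of every other RNA library. In batch 3 the shares were 2.84% (KO5), 4.50% (KO6), 2.85% (WT5) and 5.03% (WT6), so the genotypes overlapped. In footprints the share was 9.64 to 14.4% in batch 1, 4.56 to 9.97% in batch 2 (9.97% in WT4 and 9.76% in KO3) and 11.5% or more in batch 3. The highest of these, in WT6, rested on 2 Fcgr2b counts and had an interval of 7.15 to 59.1%, which includes 9 of the other 11 footprint shares. Because the genes differ in length, these shares compare cultures and do not give the proportion of receptor molecules. The mean log2 ratio of activating to inhibitory RNA counts in KO minus WT was 0.03 in batch 1, 1.14 in batch 2 and 0.09 in batch 3, and in footprints 0.23, 0.77 and 0.34. After the batch mean was subtracted, KO was higher by 0.32 in RNA (SD 0.41 between cultures) and by 0.36 in footprints (SD 0.49). Batches with unequal numbers of KO and WT shrink that difference, which with batch as a term of a linear model was 0.39 and 0.43. Without WT4 the centred differences were 0.04 and 0.19, and those with batch as a term 0.064 and 0.29. No test was made of this ratio.

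**Figure D3:**
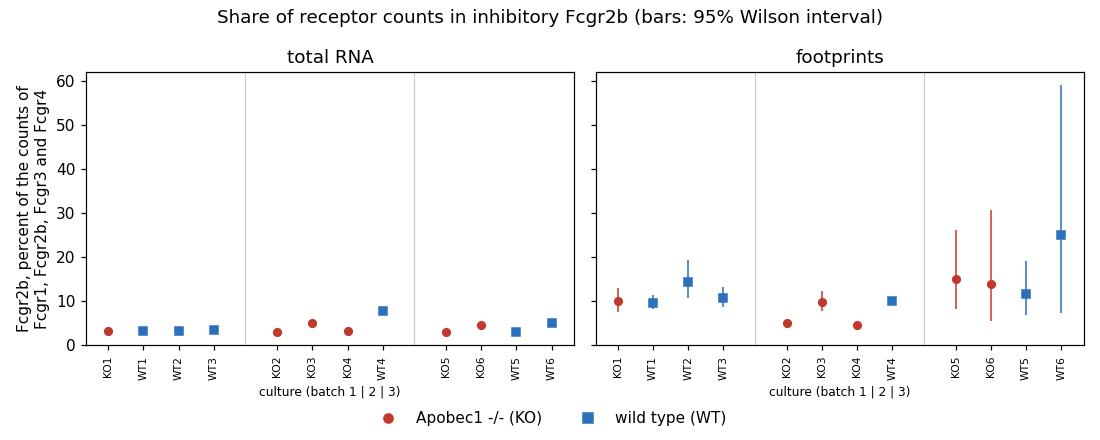
Share of Fcgr2b among the counts of the 4 Fc-gamma receptors in each library, in percent, with 95% Wilson intervals that cover counting error only. WT4 is the highest RNA library at 7.66%, and the intervals of the batch 3 footprint libraries are wide, reaching 7.15 to 59.1% in WT6.

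The ratio of footprints to RNA differed in kind between the receptors. For Fcgr1 the 2 levels moved together, with ratios of footprint CPM to RNA CPM of 1.02 to 1.05 in batch 1, 0.923 to 1.14 in batch 2 and 0.971 to 1.52 in batch 3. For Fcgr3 the ratio was 0.513 to 0.588, 0.489 to 0.635 and 0.0979 to 0.606 in the 3 batches. The WT6 value of 0.0979 is that of the single count (exact Poisson interval 0.00248 to 0.546), and the other 11 cultures lay between 0.414 and 0.635. The Fcgr1 ratios of batch 3 rest on 3 to 19 footprint counts, with exact Poisson intervals of 0.314 to 4.45 in WT6 and 0.615 to 1.59 in WT5, so a moderate change of the ratio there was not detectable at this depth.

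Fcer1g, Fcgr2b and Fcgr4 had lower ratios in batch 2 than in batch 1 in every culture. Fcer1g stood at 3.93, 4.94, 5.08 and 3.78 in KO1 and WT1 to WT3, at 2.41, 2.19, 2.24 and 2.43 in KO2 to KO4 and WT4, and at 6.90, 4.55, 8.32 and 4.95 in KO5, KO6, WT5 and WT6. Every batch 2 culture was below every culture of the other batches. Fcgr2b ratios were 2.90 to 4.82 in batch 1, 1.34 to 1.66 in batch 2 and 2.39 to 3.67 in batch 3. Batch 2 was again lowest, without overlap of the values. The batch 3 ratios of Fcgr2b rest on 2 to 12 footprint counts. Exact Poisson intervals there, 0.651 to 6.12 in KO6 and 0.340 to 10.1 in WT6, include the batch 2 range. Of all genes with a ratio in every culture, 17.9% were lower in batch 2 than in batch 1 without overlap, as were Fcer1g, Fcgr2b and Fcgr4, and 7.13% were higher in batch 3 than in batch 2, as were Fcer1g and Fcgr2b. Fcgr4 ratios were 2.36 to 2.80 in batch 1, 1.45 to 1.77 in batch 2 and 0.733 to 2.03 in batch 3. The lowest Fcgr4 value, in KO6, rests on 3 footprint counts (exact Poisson interval 0.151 to 2.14). In WT4, the culture with the highest Fcgr2b and Fcgr4 RNA, the ratios of 1.40 and 1.67 lay inside the range of KO2 to KO4.

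**Figure D4:**
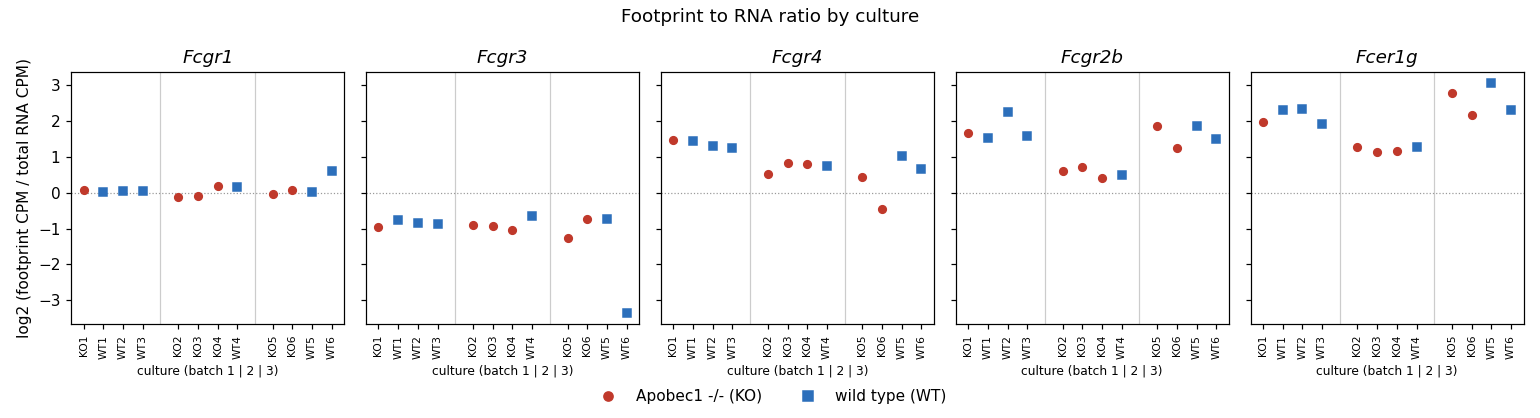
Log2 ratio of footprint CPM to total RNA CPM by culture for each gene, circles KO and squares WT, with grey lines between batches and a dotted line at 0. Fcgr1 lies near 0 in 11 cultures, and Fcer1g and Fcgr2b are lower in all 4 cultures of batch 2 than in batches 1 and 3.

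Tests of the ratio used RNA and footprint libraries in 1 model. Over all cultures, 4 of the 5 genes differed between footprints and RNA, where 71.1% of genes passed: Fcer1g at 2.04 (SE 0.13), Fcgr2b at 1.23 (SE 0.21), Fcgr4 at 1.06 (SE 0.20) and Fcgr3 at -0.79 (SE 0.10) on the log2 scale, each with an edgeR adjusted p below the threshold. Fcer1g was at percentile 99.5 of all tested genes and Fcgr3 at percentile 24.9. The median gene stood at -0.06, and other scalings moved that median to between -0.24 and 0.01. Under them Fcgr1 moved from 0.16 to -0.010 with the RLE factors of edgeR and to 0.24 with upper-quartile factors, where alone it passed, while the other 4 genes kept their sign and passed. The counted region of the RNA tables is not stated, so this ratio is less comparable between genes than between cultures.

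None of the 5 genes was called for a genotype difference in the ratio, where 0.0093% of all genes passed. At an unadjusted p below 0.05, edgeR named 0 of the 5, against 2.98% of all genes. The KO minus WT estimates were -0.15 for Fcgr1 (SE 0.22), -0.29 for Fcgr2b (SE 0.38), -0.22 for Fcgr3 (SE 0.20), -0.21 for Fcgr4 (SE 0.42) and -0.22 for Fcer1g (SE 0.17). In the authors' deposited table of all genes, the log2 fold changes were 0.12 for Fcgr1, 0.19 for Fcgr3, 0.33 for Fcgr4, 0.44 for Fcgr2b and 0.46 for Fcer1g, all with an adjusted p of 1. That table's header does not state the direction, and Apobec1 stood at 4.88 in it. The KO minus WT estimate of Apobec1 in the ratio was -4.87 here (SE 0.31), of like size and opposite sign. Read by Apobec1, a value above 0 in that table stands for a ratio lower in KO.

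Between batches the ratio of Fcer1g changed, in comparisons added after the values were seen. From batch 1 to batch 2 its log2 change was -0.78 (SE 0.21, edgeR adjusted p = 0.0152), the 1 call among the 5 genes where 10% of all genes passed. This call was lost without WT4 (-0.71, edgeR adjusted p = 0.115) and without KO1 (-0.78, edgeR adjusted p = 0.0785). From batch 2 to batch 3 it rose by 1.19 (SE 0.20, edgeR adjusted p = 6.07e-04), again the 1 call, where 6.42% of genes passed and the median gene stood at -0.16. It stood at 1.54 without KO6 and WT6, the 2 shallowest footprint libraries (edgeR adjusted p = 1.37e-04). Between batches 1 and 3 none of the 5 passed, where 0.633% of genes did; edgeR gave 0 of the 5 at an unadjusted p below 0.05, against 11.5% of all genes. With each culture as a replicate block, more genes passed in all, 21.5% from batch 1 to batch 2 and 11.6% from batch 2 to batch 3. Among the 5, 3 then passed from batch 1 to batch 2, Fcgr2b at -1.15 (SE 0.19), Fcgr4 at -0.62 (SE 0.15) and Fcer1g at -0.79 (SE 0.13), and 2 from batch 2 to batch 3, Fcgr2b at 1.02 (SE 0.37) and Fcer1g at 1.24 (SE 0.13). Tyrobp, an adaptor chain with a like role for other receptors, also fell by 0.68 from batch 1 to batch 2 and rose by 0.58 from batch 2 to batch 3 in this ratio (edgeR adjusted p = 0.0150 and 0.0414).

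The pathway around the receptors was read from lists of genes. Activating signal transducers (Src-family kinases, Syk and their partners) gave 0 calls of 24 genes between genotypes in RNA, footprints or ratio, with a footprint median of -0.06 against 0.01 over all genes. Inhibitory transducers (phosphatases, Cbl ligases and Csk) gave 0 of 12 in RNA. Between batches 2 and 3, 15 of the 24 activating transducers fell and 1 rose in RNA, with a median of -0.34 against 0.01 for all genes, where 24.5% of all genes passed as lower and 49.2% in either direction. The Src-family kinase Lyn fell by 0.84, the phosphoinositide 3-kinase subunit Pik3cd by 0.66 and the adaptor Gab2 by 0.90, while the adaptor Lat2 rose by 1.44. Of the 12 inhibitory transducers, 5 fell and 2 rose, near the share of all genes called. Inpp5d, whose product acts below Fcgr2b, fell by 0.95, the kinase Csk by 0.51 and the phosphatase Ptpn6 by 0.49, and the ubiquitin ligase Cblb rose by 1.25. In footprints the same batches gave 5 lower and 1 higher of 24 activating and 2 lower and 1 higher of 11 inhibitory transducers, near the 22.5% of all genes called.

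Other Fc receptors and partner receptors also differed between batches 2 and 3, a comparison in which 49.2% of all genes passed in RNA and 24.5% as lower. All 5 tested members of the list of other Fc receptors fell in RNA, among 13 listed in the files, including Fcgrt, the neonatal Fc receptor that recycles IgG, by 2.08 and Fcrls by 4.48. Among 16 tested genes of a list of receptors that pair with Fcer1g or Tyrobp, 9 fell and 1 rose. That list also holds the adaptor chains Tyrobp and Hcst, and Pirb, which is in the list of other inhibitory receptors as well. Itgam of that list, the integrin chain of complement receptor 3, fell by 1.54. Of 13 other inhibitory receptors of macrophages, 6 fell and 5 rose, with Siglec1 lower by 4.26 and Sirpa, the receptor for CD47, lower by 0.90. None of these 3 lists gave a call between genotypes in RNA, footprints or ratio.

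Interferon-response genes were higher in batch 2 than in batches 1 and 3, as were the RNA levels of Fcgr1, Fcgr4, Fcgr2b and Fcer1g. In RNA, 8 of 11 tested members rose and 0 fell from batch 1 to batch 2 (median 0.68, where 23.5% of all genes passed), and 0 rose and 10 fell from batch 2 to batch 3 (median -1.27, where 49.2% passed). Irf7 fell by 2.09, Oasl2 by 1.37 and Irf1 by 1.27 in the latter. The summed level of the 12 listed genes was 1136 to 1472 CPM in batch 1, 1855 to 2201 CPM in batch 2 and 739 to 905 CPM in batch 3. This sum was 1855 CPM in WT4, the culture with the highest Fcgr4 RNA, and 1936 to 2201 CPM in KO2 to KO4. Single members differed. Irf7 RNA was 338 CPM in WT4 against 420 to 448 in KO2 to KO4, and Isg15 RNA 115.6 against 81.6 to 114.8. Macrophage markers fell as well: 9 of 9 were lower in batch 3 than in batch 2 in RNA, with Mertk, which takes up dying cells, lower by 3.00 and Csf1r, the M-CSF receptor, lower by 1.85. The part of either list in the receptor changes was not tested.

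Genes with the most similar RNA pattern were ranked by Pearson r of log2 CPM over the 12 cultures after the batch mean was subtracted, among 8523 genes. Fcgr4 was most like Itm2c (r = 0.97), Lrrc25 (0.96) and Zfand6 (0.96), and r was 0.90, 0.91 and 0.96 without the 2 farthest cultures, KO3 and WT4. Fcgr2b was most like Ftl1, a ferritin light chain gene (0.95), Shb (0.95) and D11Wsu99e (0.95), which stood at 0.80, 0.83 and 0.75 without KO2 and WT4. Fcgr1 was most like BC017643 (0.90), Txndc12 (0.89) and Akirin2 (0.88), which stood at 0.60, 0.82 and 0.67 without KO3 and WT6. Fcgr3 was most like Mrpl9 (0.96), Tmco1 (0.94) and Ankrd10 (0.94), at 0.83, 0.76 and 0.69 without WT4 and WT5. Fcer1g was most like Samhd1 (0.93), Smcr7l (0.91) and Xpo6 (0.89), at 0.91, 0.76 and 0.81 without KO1 and KO6. Among the receptors themselves, Fcgr1 and Fcgr4 had r = 0.71 and Fcgr2b and Fcgr4 0.61. The r of Fcgr2b with Fcgr4 was 0.15 without KO2 and WT4. The cultures share batch and depth, 12 values of 3 batches are few, and these values describe the cultures only.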

How the data were processed

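Total RNA and ribosome footprint libraries of 12 cultures were compared. The count tables (24 libraries) were deposited as whole-number read counts per gene symbol with no normalization, and the footprint tables cover coding sequence per the labels of the deposited files. The submitters' processing notes name build mm10, HTSeq, DESeq2, DESeq, TopHat2 2.1.0, Bowtie 1.1.2, Cufflinks 2.2.1 and Trim Galore, without stating which was used for which step. No strand setting is stated. The authors' deposited result tables give a log2 fold change, a test score, a p-value and a mean normalized signal per gene; their direction is not given per the file headers.

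Genes absent from a table were taken as 0, and the 5 summary lines of HTSeq were left out of library sizes. Counts were tested with edgeR 4.0.16 in R 4.3.3 (filterByExpr with a minimum count of 10, TMM factors, quasi-likelihood test, Benjamini-Hochberg adjustment over all tested genes, threshold 0.05). RNA and footprints were fitted separately over all 12 cultures with genotype and batch, and together for the footprint to RNA ratio. Log2 CPM used a prior count of 2, and the activating to inhibitory ratio a pseudocount of 0.5. Intervals are 95% Wilson intervals for shares and exact Poisson intervals for counts, and cover counting error only, since reads without molecular identifiers are not independent molecules. The scripts were tested on simulated data. Alternatives used DESeq2 1.42.0, limma 3.58.1 (voom), other scalings, filters, depths and left-out cultures.

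The 5 genes and all lists were chosen with earlier results of these data known. Genes named from lists are those past the threshold between genotypes, and up to 4 per list with the smallest p between batches; the 3 most similar genes by Pearson r were taken per receptor among genes of at least 10 CPM. Tyrobp was named for the ratio after its values were seen. The 2 libraries of a culture share its label, so a fit with the culture as a replicate block was run. Promoter sequences are from RefSeq (GRCm38.p6), where all 5 genes were matched; transcript lengths and proteins were not used here.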

Additional observations from a re-analysis of the deposited data

Results flagged for a closer look

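Of 34 groups of 6 cultures examined for a single far value, 6 held one, where chance alone marks about 1 in 20 groups of like samples. Each group spans 3 batches, so a batch difference can also set a value apart. A pair of them belonged to WT4 in total RNA: Fcgr2b stood at 6.64 log2 CPM (next highest WT culture 4.64) and Fcer1g at 9.17 log2 CPM (next 8.11). WT4 was the only WT culture of its batch, and its Fcer1g RNA was 1.13 times the mean of KO2 to KO4 of that batch, against 2.88 times for Fcgr2b.

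The other 4 belonged to footprints of WT6, the shallowest library, with 29561 counts. Fcgr3 stood at 4.85 log2 CPM (next lowest 7.66), from 1 count, and its log2 ratio of footprint to RNA CPM at -3.35 (next -0.88). The log2 ratio of Fcgr1 was 0.61 (next highest 0.17), from 3 counts, and the log2 ratio of activating to inhibitory footprint counts was 1.38 (next lowest 2.56).

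The genotype by batch term of Fcgr4 footprints had an edgeR adjusted p of 7.29e-04, from a design with 1 KO culture in batch 1 and 1 WT culture in batch 2 and with 2 to 23 counts per library in batch 3. KO minus WT was 0.49, -1.23 and -0.89 in batches 1, 2 and 3, and without WT4 the adjusted p was 0.718.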

How the results depend on the processing

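Of the summary values recomputed under the alternatives, 295 stayed within 1.5 times or 1 SD of the reported value and 37 moved; for single genes, 1368 kept direction and call, 51 gained a call, 14 lost one and 37 changed sign. Footprint depth limits batch 3. The cause of these changes was not tested.

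Counts of the 5 genes called moved as follows. The depth minimum of 1000000 footprint counts kept 4 cultures, KO2, KO4, WT1 and WT4. WT1 is the only culture of batch 1 there, so genotype compares KO2 and KO4 with WT4 alone. Batch 2 over 1 rests on WT1 and WT4 there, and no counts of calls are given for this setting. For genotype in footprints (0) the count was 1 with no filter on low counts and 0 to 2 when 1 culture was left out. For batch 2 over 1 in RNA (4) it was 1 to 4 with 1 culture left out. For batch 3 over 1 in RNA (1) it was 2 with DESeq2, 3 with limma voom, 2 with RLE factors and 1 to 4 with 1 culture left out. For batch 2 over 1 in footprints (1) it was 2 with no filter and 0 to 3 with 1 culture left out. For batch 3 over 1 and 3 over 2 in footprints it was 1 to 3 and 1 to 4 with 1 culture left out. For genotype by batch it was, in RNA (0), 2 with DESeq2, 1 with voom, 2 with no filter, 1 without KO6 and WT6, 1 without batch 3 and 0 to 1 with 1 culture left out, and in footprints (1) 2 with voom, 2 with no filter and 0 to 2. For the ratio from batch 1 to 2 (1) it was 2 with no filter and 3 with the culture as replicate block. With 1 culture left out it was 0 to 1. From batch 2 to 3 (1) it was 2 with the block. The activating to inhibitory difference in RNA was 0.93 at the depth minimum, where it also rests on WT4 alone, and 0.04 to 0.45 with 1 culture left out. The genotype by batch term could not be fitted at the depth minimum or without KO1, and batch 3 gives no value in settings that leave it out.

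Signs changed for these log2 values. For genotype in RNA, Fcgr1 was 0.090 with voom, 0.19 with no batch term, 0.17 with the replicate number as replicate block and -0.16 to 0.025 with 1 culture left out (above 0 without WT4 or WT5); Fcgr4 was 0.014, 0.12 with the block and -0.62 to 0.094 (above 0 without WT4); Fcer1g was -0.18 at the depth minimum and -0.0062 (without KO1) to 0.21. For genotype in footprints, Fcgr1 was 0.065 with no batch term and 0.090 with the block, and Fcgr4 was -1.20 (without KO1) to 0.21 (without WT4). For genotype in the ratio, Fcgr2b was 0.033 with the culture block, 0.053 at the depth minimum and -0.42 to 0.0038 (without WT4), and Fcgr4 was -0.56 to 0.12 (without WT4). Fcer1g RNA in batch 3 over 1 was -0.024 without KO6 and WT6. In footprints of batch 2 over 1, Fcgr2b was -0.018 with voom and -0.57 (without WT4) to 0.73, and Fcgr4 was -0.025 (without WT4) to 1.49. Fcgr1 footprints over RNA were -0.010 with DESeq2 and with RLE factors, and -0.014 with no filter. For the ratio from batch 1 to 2, Fcgr4 was 0.089 with voom. From batch 1 to 3, Fcgr2b was 0.11 with voom and 0.11 without KO6 and WT6, Fcgr3 was 0.0024 with upper-quartile factors, and Fcgr1 was -0.089 with the culture block, -0.12 without KO6 and WT6, and -0.11 to 0.14 with 1 culture left out (below 0 without WT2, WT4 or WT6). From batch 2 to 3, Fcgr1 was 0.059 with DESeq2, 0.017 with voom, 0.056 with RLE and 0.073 with upper-quartile factors.

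Over all genes, the genotype count in footprints was 6. It was 1 with DESeq2, with voom, with no batch term and with the replicate block, and 12 with upper-quartile factors. It was 159 with no filter, 19 without batch 3 and 1 to 269 with 1 culture left out. In RNA it was 2, against 7 with DESeq2, 10 with no filter and 1 without batch 3 or without KO6 and WT6. In the ratio it was 1, against 26 with no filter. The genotype by batch count was 108 in RNA, against 370 with DESeq2, 413 with voom, 841 with no filter, 163 without KO6 and WT6 and 349 without batch 3, and 145 in footprints, against 228 with no filter. For footprints of batch 2 over 1 it was 1108, against 629 with voom. For the ratio it was 1079 from batch 1 to 2, against 2311 with the culture block, 68 from batch 1 to 3, against 153 with DESeq2, 293 with voom, 103 with no filter and 230 with the block, and 690 from batch 2 to 3, against 1397 with voom and 1248 with the block. With 1 culture left out, the ratio counts were 328 (without WT4; 445 without KO1) to 1347, 16 (without KO5) to 83 and 256 (without KO5) to 698. Without WT4, batch 2 over 1 gave 1345 in RNA (2572 with it) and 597 in footprints, and genotype by batch gave 0 in both, against 483 in RNA and 372 in footprints without KO3. Without KO5, batch 3 over 1 gave 990 in footprints (1498 with it) and batch 3 over 2 gave 974 (1623 with it). Genotype in RNA gave 9 without KO1.

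KO and WT cultures of numbers 1, 4, 5 and 6 share a batch as well as the number, and those of numbers 2 and 3 share only the number. The r of their deviations was 0.0274 to 0.807 in RNA and 0.0732 to 0.328 in footprints. In RNA it was highest for numbers 5 (0.807) and 6 (0.780). Numbers 1 and 4 stood at 0.554 and 0.326, and numbers 2 and 3 at 0.415 and 0.0274. These values do not separate number from batch. The replicate block left 0 of the 5 genes called in RNA or footprints. The culture block changed no other call than those given for the ratio.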
